A study of Mus musculus with 5 samples.

Results

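Tumor endothelial cells (TECs) from HAK-1B tumors were compared with liver sinusoidal endothelial cells (LSECs) on 2 of the 5 arrays of the series, 1 array a side. HAK-1B is a human hepatoma cell line, which was inoculated into the left liver lobe of mice. LSECs came from mouse liver, and TECs were taken from the tumors with magnetic beads against mouse CD31, the protein that Pecam1 encodes. The labels give C57BL/6 as the strain and liver as the tissue for both samples. The study's methods name female 6-week-old C57BL/6 or BALB/c nu/nu mice and do not say which host carried which tumor. They also do not say how many animals gave the RNA of an array. The methods' account of the arrays names Huh-7 as a tumor line, whereas the labels and other parts of the methods name HAK-1B, and the labels were followed. A mouse array was used, so any RNA of the human tumor cells could be read only through probes designed for mouse genes.

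Members were the genes measured on this pair. Of 37074 gene names on the array, 22470 had a signal well above background on at least 1 of the 2 arrays. Both arrays gave such a signal for 19118 genes, the HAK-1B TEC array alone for 2206 and the LSEC array alone for 1146. Signals were put on a common log2 scale, on which a difference of 2 is a 4-fold difference, and genes beyond 4-fold in either direction were described. With 1 array a side no test was possible, so every ratio below describes these 2 arrays and has no replicate error. The error that the scanner software gave to a log2 ratio was 0.205 at the median of genes above background on both arrays, which covers reading of the spots only. The 3 TEC arrays shared a slide and the LSEC array was on another, so slide and cell type cannot be told apart.

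The checks of identity had mixed results. On both arrays all 27 pan-endothelial genes were above background. Hepatocyte, Kupffer cell, red cell and platelet genes were also bright on the LSEC array, and macrophage genes such as Csf1r were bright on both. Of 35 measured hepatocyte genes, 34 were above background on the LSEC array and 20 on the HAK-1B TEC array. The Y-linked gene Eif2s3y read 10.39 in LSEC and 10.63 in HAK-1B TEC, Ddx3y 7.75 and 8.20, Kdm5d 7.98 and 7.64, and Uty 7.60 and 8.47, all above background. The 1 probe for Xist, the RNA that coats the inactive X chromosome of female cells, was not well above background on either array. On the cultured Hepa1-6 array the order was the other way round, with Xist at 8.68 and Eif2s3y not above background at 4.28 on a scale set over all 5 arrays. The 2 samples therefore read unlike the female mice of the methods. Of the 5 measured X- and Y-linked genes 1 was beyond 4-fold lower, Tsix, the antisense partner of Xist, which was dim in HAK-1B TEC and had a bound of 1.52-fold.

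Sinusoidal endothelium lines the liver's capillaries. It is perforated by open pores, lacks a continuous basement membrane, and clears waste from blood through scavenger receptors such as those encoded by Stab1, Stab2 and Mrc1. It also secretes signals for hepatocytes, including Wnt2, Rspo3 and Bmp2. Endothelium of tumors is known instead for sprouting under VEGF, for tip cells that lead the sprouts, and for a thickened matrix. Low oxygen stabilizes hypoxia-inducible factors, which bind a short DNA element with the core ACGTG and drive VEGF and glycolytic genes.

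In HAK-1B TEC 1725 genes were more than 4-fold higher than in LSEC, 7.68% of the 22470 measured, and 1872 were more than 4-fold lower, 8.33%. Of the higher genes, 755 were above background on both arrays and 970 were dim in LSEC. Of the lower genes, 1092 were above background on both and 780 were dim in HAK-1B TEC. For a dim gene the ratio depends on a reading near background, so a bound was used, in which the dim side was raised to the lowest signal well above background on its array. With that bound 1016 genes were beyond 4-fold higher and 1416 lower. Counts fell further under another background correction, normexp, to 665 and 837. A fold given below as at least a value is the bound, which holds for the processing used here only. With normexp the log2 ratio of Cxcl3 was 4.92 beside a bound of 6.69. That of Ccr1 was 1.93 beside a bound of 2.65, so it was inside 4-fold. The log2 ratios of all measured genes had a median of -0.01, which the normalization sets near 0, and an SD over genes of 1.52. Among the 20 measured housekeeping genes none was beyond 4-fold, their median log2 ratio was 0.10 and their range was -0.82 to 1.73.

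**Figure D1:**
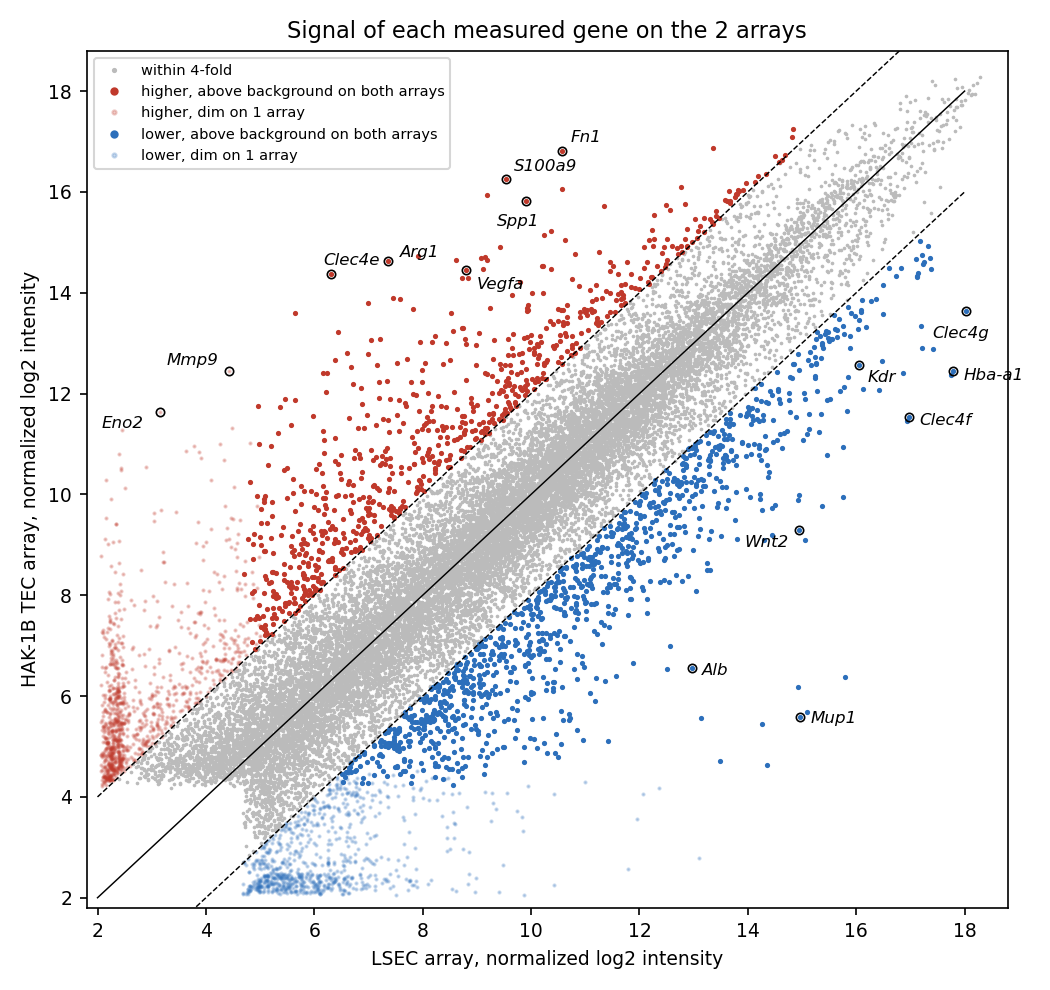
Normalized log2 intensity of each measured gene on the LSEC array (horizontal axis) and the HAK-1B TEC array (vertical axis). Dashed lines mark 4-fold, red points are the 1725 higher genes and blue points the 1872 lower genes, pale where the gene was dim on 1 array, and 15 named genes are circled.

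The largest differences in the higher direction among genes above background on both arrays were led by immune genes. Clec4e, a receptor for mycobacterial and dead-cell ligands on myeloid cells, read 6.32 in LSEC and 14.38 in HAK-1B TEC, a log2 ratio of 8.06 (scanner error 0.22). Tmem119, best known as a microglial surface gene, read 5.64 and 13.60. Arg1, which breaks down arginine, read 7.36 and 14.63, a 155-fold difference. The calcium-binding alarmins S100a8 and S100a9 followed at 113-fold and 106-fold. Il1r2, a decoy receptor for interleukin-1, was 111-fold higher, and Il1rn, its receptor antagonist, was 78.7-fold higher. Chil3, a chitinase-like protein of myeloid cells that also read 12.17 on the Hepa1-6 cell array on the scale over 5 arrays, was 109-fold higher and the acute phase gene Saa3 had a log2 ratio of 6.75. Syngr1, Ptafr, the receptor for platelet-activating factor, and G0s2, an inhibitor of lipolysis, were 87.3-fold, 86.9-fold and 82.3-fold higher. Among genes dim in LSEC the bounds were 225-fold for the gelatinase gene Mmp9 and 130-fold for the glycolytic enzyme gene Eno2. They were 103-fold for the neutrophil attractant Cxcl3 and 82.9-fold for the adenosine receptor gene Adora2b. Ltf, which encodes lactoferrin, had a bound of 80.6-fold and Spon1 of 75.1-fold, with another Spon1 probe at a log2 ratio of 3.82.

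In the other direction the largest differences were in genes of the major urinary proteins, which hepatocytes secrete. Mup17 read 14.35 in LSEC and 4.63 in HAK-1B TEC, a log2 ratio of -9.72 (scanner error 0.33). Mup19, Mup1, Mup4, Mup21 and Mup2 had log2 ratios from -9.42 to -7.57 by the brightest probe. Mup20, Mup5 and Mup3, dim in HAK-1B TEC by that probe, had bounds of 480-fold, 218-fold and 103-fold lower. These genes are near-identical copies, and a probe may read several of them, so their count is uncertain. The 3 probes of Mup3 ran from -8.07 to -0.52. The second probe of Mup20, above background on both arrays, had a log2 ratio of -5.04, and that of Mup21 had -6.11. Alb, the gene for albumin, read 12.96 and 6.55, which is 85.2-fold lower. Fabp1, the liver fatty acid carrier, was at least 234-fold lower and the protease inhibitor Serpina3k at least 75.4-fold lower. Enpep, a surface aminopeptidase, was 79.7-fold lower by its brighter probe, but its other probe had a log2 ratio of -2.32. Mup-ps16, with a bound of 290-fold, had a second probe with a log2 ratio of 2.88. Cd209f, a lectin, was 62.9-fold lower. Cyp26b1, which degrades retinoic acid, was 61.7-fold lower, the retinol carrier Rbp4 56.3-fold and the globin gene Hbb-bt 56.0-fold.

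The endothelial genes came lower in HAK-1B TEC almost as a block. Of 27 pan-endothelial genes 26 had a log2 ratio below 0, 13 were beyond 4-fold lower (48.1%, beside 8.33% of all measured genes), none was beyond 4-fold higher, and their median log2 ratio was -1.995 beside -0.01 for all genes. Their summed signal, on the linear scale, was 961600 in LSEC and 181900 in HAK-1B TEC. Kdr, the main VEGF receptor, read 16.05 and 12.56, an 11.2-fold difference. Flt1, another VEGF receptor, was 11.5-fold lower, although its 4 probes ran from -3.53 to -0.17. Tek, the angiopoietin receptor, was 12-fold lower, and Ptprb, the phosphatase that restrains it, 14.5-fold. Cdh5, the cadherin of endothelial junctions, read 14.08 and 12.09, just inside the 4-fold line at -1.99. Pecam1, the target of the beads, differed less, with 11.15 and 9.99. Cd93 alone was higher, at 14.52 and 14.87, and Fli1 and S1pr1 differed by 0.18 in the lower direction. The part that the neutrophil and macrophage RNA described below has in this share was not tested. In RNA from a mixture of cells, fewer cells of a type and less RNA per cell cannot be told apart.

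Most genes of sinusoidal identity were lower too. All 32 were above background on both arrays. Beyond 4-fold, 22 were lower (68.8%, beside 8.33% of all measured genes) and none was higher (beside 7.68%). The median log2 ratio of the 32 was -3.34. Their summed signal was 1432000 in LSEC and 354200 in HAK-1B TEC. This is a smaller relative difference than that of the pan-endothelial sum, whereas their median log2 ratio was lower than the pan-endothelial median. Wnt2, a hepatocyte growth signal, read 14.94 in LSEC and 9.29 in HAK-1B TEC, a 50.2-fold difference. Ehd3, which acts in membrane recycling, was 44.2-fold lower, the DNase gene Dnase1l3 38.4-fold and Cyp4b1 31-fold. The hyaluronan scavenger gene Stab2 read 17.21 and 12.90, and its 5 probes ran from -4.80 to -3.75. Clec4g, a sinusoidal lectin and among the brightest genes on the LSEC array, read 18.03 and 13.64. Gata4, the transcription factor that specifies sinusoidal endothelium, had a log2 ratio of -3.49, Bmp2 of -3.58 and Rspo3 of -3.46.

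Some sinusoidal genes were within 4-fold. The hyaluronan receptor gene Lyve1 read 11.34 and 11.13, a log2 ratio of -0.21, whereas Stab2, which also binds hyaluronan, had -4.30. Stab1, a relative of Stab2, had -1.27, Fcgr2b -1.31, Ctsl -0.53 and Hgf -0.11 with 4 probes from -0.61 to 1.12, and Lgmn, a lysosomal protease gene, was higher by 0.50. Macrophages also express Stab1, Fcgr2b, Ctsl and Lgmn, and the macrophage genes Csf1r, Lyz2 and Adgre1 were bright on both arrays, with Csf1r at 17.30 and 17.55. The part of macrophage RNA in these readings was not tested.

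**Figure D2:**
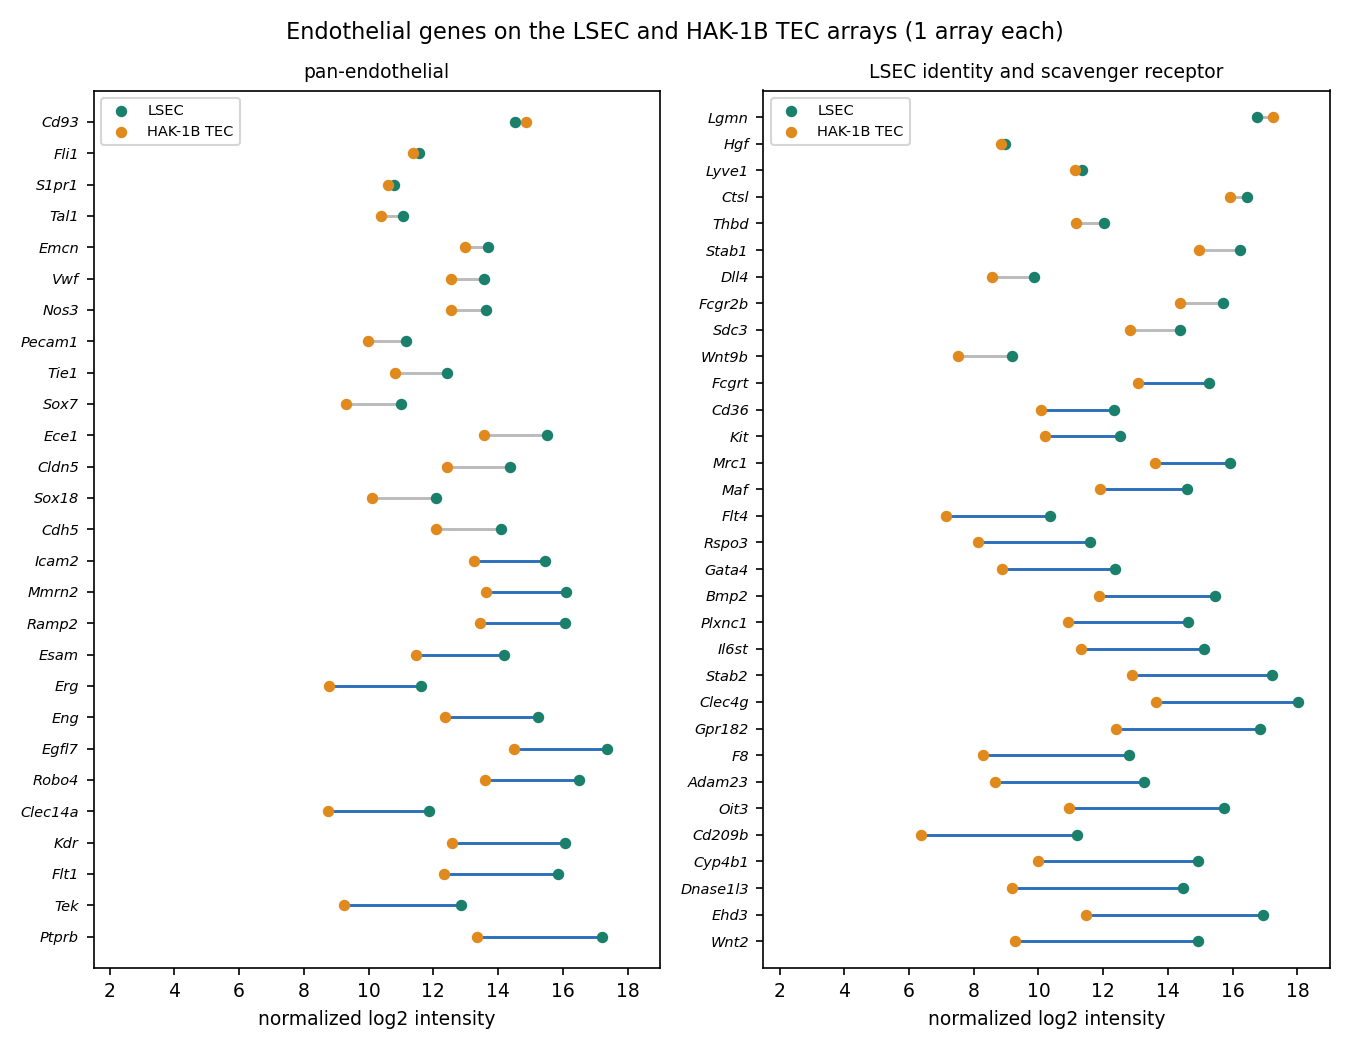
Normalized log2 intensity of 27 pan-endothelial genes (left) and 32 genes of sinusoidal identity (right) on the LSEC array (green) and the HAK-1B TEC array (orange), joined by a line that is blue where the gene was beyond 4-fold lower. Cd93 and Lgmn are the genes with the orange point to the right.

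Markers of continuous capillaries and of tumor endothelium were mixed. Of 16 measured capillary genes 6 were beyond 4-fold higher (37.5%) and 2 lower (12.5%), beside 7.68% and 8.33% of all measured genes. The median of the capillary genes was 0.09, and -0.29 among those above background on both arrays. Their summed signal was 228900 in LSEC and 74560 in HAK-1B TEC. Apelin, encoded by Apln, read 5.87 in LSEC and 9.02 in HAK-1B TEC, and the gene for its receptor, Aplnr, was at least 12-fold higher. Cd34, a capillary and tip cell antigen, read 10.66 and 13.40, and Rgcc, a cell cycle regulator of endothelium, read 7.83 and 11.99. Vwa1 was higher by at least 4.91 on the log2 scale by its brighter probe while another had a log2 ratio of -1.20, and Col15a1, which was beyond 4-fold as read, had a bound of only 2.58-fold. The water channel gene Aqp1, 17.35 and 14.69, went the other way.

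Of 28 tip cell and tumor endothelial genes 9 were beyond 4-fold higher (32.1%, beside 7.68% of all measured genes), with a median of 0.76. The 2 lower were 7.14%, near the 8.33% of all measured genes. Igfbp3, a binding protein of insulin-like growth factors, read 9.08 and 14.70, a 49.2-fold difference. The laminin chain gene Lamb1 was 30.1-fold higher, the immune checkpoint gene Cd276 at least 17.5-fold and Cxcr4, a tip cell chemokine receptor, higher by 2.62. Esm1, a gene that VEGF induces in tip cells, was higher by 2.24, and Mcam by 1.94, inside the 4-fold line. Angpt2 and Dll4, usual tip cell genes, had -0.14 and -1.28, and Adm, the gene for adrenomedullin, was lower by 2.75. The cultured Hepa1-6 cells also read high for some of these genes on the scale over 5 arrays, with Igfbp3 at 15.37 and Lamb1 at 12.11, so they are not particular to endothelium.

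Ligands and receptors of the vascular growth pathways did not share a direction. Among 24 measured genes of VEGF, Tie and Notch signaling 5 were beyond 4-fold higher (20.8%) and 8 lower (33.3%). The shares of all measured genes were 7.68% and 8.33%. Vegfa, the ligand, read 8.80 in LSEC and 14.45 in HAK-1B TEC, 50.2-fold higher, and 3 of its 4 probes had log2 ratios from 5.65 to 6.77 while the fourth had 0.55. Its receptor genes Kdr, Flt1 and Flt4 were lower by 3.49, 3.53 and 3.21, and the coreceptor Nrp1 by 2.23 with 7 probes from -4.74 to -0.60, while Nrp2 was higher by 2.37 with another probe at -2.10. The Notch ligand Jag2 was at least 13.5-fold higher, whereas the receptor Notch1 was lower by 2.77, with another probe at -0.75, and the target Hes1 by 3.32. Angpt1, a ligand of Tek, was lower by 2.93.

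The BMP and TGF-beta genes were also mixed. Of 28 genes 4 were beyond 4-fold higher (14.3%) and 9 lower (32.1%), beside 7.68% and 8.33% of all measured genes. Inhba, the activin A subunit, was at least 73.8-fold higher and Tgfb3 higher by 4.21 on the log2 scale. Bmp6, which controls hepcidin and iron, was 17.8-fold lower, Bmp2 lower by 3.58, the coreceptor genes Eng and Tgfbr3 by 2.88 and 3.44, and the BMP targets Id1 and Id3 by 3.27 and 2.31. Acvrl1, the endothelial BMP9 receptor, had -0.17.

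Matrix genes included some of the brightest differences. Fn1, encoding fibronectin, read 10.57 in LSEC and 16.82 in HAK-1B TEC, and its 4 probes gave 5.69 to 6.76. Spp1, the secreted glycoprotein osteopontin, read 9.90 and 15.81, a 60.2-fold difference, and Col18a1, which contains endostatin, had 4.67. Sparc (-0.62) and the basement membrane chains Col4a1 (0.54) and Col4a2 (0.29) were within 4-fold. Col4a4 was dim in HAK-1B TEC and at least 15.6-fold lower. Of 27 measured matrix genes 6 were beyond 4-fold higher (22.2%) and 6 lower (22.2%), beside 7.68% and 8.33% of all measured genes. Proteases and their inhibitors were mostly higher, with 14 of 24 beyond 4-fold higher (58.3%), 1 lower and a median of 2.66. Besides Mmp9, Adam8, a sheddase of myeloid cells, was 47.6-fold higher, Timp1 22.4-fold, and Mmp8, the neutrophil collagenase, 28.7-fold. Timp3, an inhibitor held in the matrix, was lower by 3.03. Fn1 and Spp1 are also made by macrophages and by hepatoma cells, and on the Hepa1-6 cell array they read 16.52 and 11.86 on the scale over 5 arrays.

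Hypoxia and glycolysis genes were higher in part. Of 37 measured, 10 were beyond 4-fold higher (27%, beside 7.68% of all measured genes) and 1 lower, with a median of 1.03 and 29 above 0. Vegfa and Eno2 led. Slc16a3, which exports lactate, read 9.18 in LSEC and 14.65 in HAK-1B TEC, 44.4-fold higher, with another probe at 2.64. Egln3, a hypoxia-induced prolyl hydroxylase, was 22.9-fold higher, the glucose importer Slc2a1 higher by 3.77 and the hexokinase Hk2 by 2.43. Core enzymes of glycolysis were higher by less, with Pgk1 at 1.6 and another of its probes at -0.26, Aldoa at 1.03, Gapdh at 0.98 and Ldha at 0.93. Other hypoxia genes did not share this, with Ddit4 at 0.05, Ndrg1 at -0.51, P4ha2 at -1.99 and Adm at -2.75.

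The promoters of the hypoxia genes with the highest ratios are shown because this element is the known binding core of hypoxia-inducible factors. Each runs from 250 bases before to 50 after the RefSeq start in GRCm38.p6, 5′ to 3′ on the strand of the gene. Capitals mark ACGTG or its reverse complement, TTTGAA, the cell cycle homology element, or its reverse complement, or TGACTCA, the AP-1 element, in either orientation. Vegfa has 2 starts in the table.
Eno2, chr6:124769624-124769923, minus strand: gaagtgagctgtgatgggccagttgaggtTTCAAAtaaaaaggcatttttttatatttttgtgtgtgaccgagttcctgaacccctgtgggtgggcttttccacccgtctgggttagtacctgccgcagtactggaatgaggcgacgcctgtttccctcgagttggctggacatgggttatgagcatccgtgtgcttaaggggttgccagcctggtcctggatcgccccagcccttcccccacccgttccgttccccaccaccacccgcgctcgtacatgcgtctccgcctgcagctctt
Vegfa, chr17:46032328-46032627, minus strand: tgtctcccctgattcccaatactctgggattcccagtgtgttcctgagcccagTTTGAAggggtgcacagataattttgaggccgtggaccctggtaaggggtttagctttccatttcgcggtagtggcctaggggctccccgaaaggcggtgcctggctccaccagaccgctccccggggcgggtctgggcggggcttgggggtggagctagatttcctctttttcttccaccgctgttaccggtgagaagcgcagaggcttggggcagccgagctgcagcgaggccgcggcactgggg
Vegfa, chr17:46025114-46025413, minus strand: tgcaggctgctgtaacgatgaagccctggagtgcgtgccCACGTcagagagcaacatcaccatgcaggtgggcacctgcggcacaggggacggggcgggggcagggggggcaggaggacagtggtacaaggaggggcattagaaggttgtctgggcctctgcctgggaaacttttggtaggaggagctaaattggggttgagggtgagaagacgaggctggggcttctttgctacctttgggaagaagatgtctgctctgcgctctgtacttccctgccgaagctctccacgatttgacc
Slc16a3, chr11:120948817-120949116, plus strand: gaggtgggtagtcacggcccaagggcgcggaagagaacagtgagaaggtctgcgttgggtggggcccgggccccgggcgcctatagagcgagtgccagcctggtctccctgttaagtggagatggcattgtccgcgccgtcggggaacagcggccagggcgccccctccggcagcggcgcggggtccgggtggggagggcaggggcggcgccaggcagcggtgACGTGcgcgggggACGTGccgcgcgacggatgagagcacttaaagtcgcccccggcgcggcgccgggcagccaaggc
Egln3, chr12:54203825-54204124, minus strand: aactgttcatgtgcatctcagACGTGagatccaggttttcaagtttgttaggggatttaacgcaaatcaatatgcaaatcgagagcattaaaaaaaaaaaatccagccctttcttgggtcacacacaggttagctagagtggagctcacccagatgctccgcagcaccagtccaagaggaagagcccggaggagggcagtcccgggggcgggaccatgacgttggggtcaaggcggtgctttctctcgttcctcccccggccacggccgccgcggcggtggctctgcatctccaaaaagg

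Slc16a3 held 2 copies of ACGTG shortly before the start, Egln3 1 copy and the second Vegfa window 1. The Eno2 window and the first Vegfa window held no ACGTG in either orientation and 1 TTTGAA each. The second Vegfa window lies downstream of the first in the gene's direction, and Vegfa counts below as holding ACGTG through that window alone. Counting a gene with any of its windows, 22 of the 32 measured hypoxia genes with a promoter in the table held ACGTG (68.8%), 7 of the 10 beyond 4-fold higher did (70%), and 21.8% of all 27025 genes with a promoter did. Of all genes beyond 4-fold higher 24% held it, of those beyond 4-fold lower 19.8% and of measured genes within 4-fold 27.8%. A match describes the letters of the window only.

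Most cell cycle genes were higher, but within 4-fold. Of 44 measured genes 39 had a log2 ratio above 0, beside 49.7% of all measured genes, and the median was 1.41. Beyond 4-fold, 4 were higher (9.09%, near the 7.68% of all measured genes) and 2 lower. Mki67, a marker of dividing cells, read 10.45 in LSEC and 12.14 in HAK-1B TEC, and Top2a, Ccnb1 and Birc5 were higher by 1.78, 1.92 and 1.68. Kif2c, a mitotic motor, was at least 6.13-fold higher and Cdkn1a, a cell cycle inhibitor that p53 induces, was 7.81-fold higher. Another probe of Cdkn1a had a log2 ratio of 1.66. The inhibitors Cdkn1c and Cdkn2a went the other way, at 8.77-fold and 7.01-fold lower. The TTTGAA element was in the promoters of 17 of the 37 measured cell cycle genes with a promoter in the table (45.9%) and of 20.2% of all genes with a promoter. Of the 29 measured neutrophil genes with a promoter in the table, 17.2% held TTTGAA and 13.8% ACGTG. Kif2c is printed with its copy, and the promoters of the neutrophil genes Clec4e and Stfa2l1 follow as examples. The Clec4e window holds 1 ACGTG and no TTTGAA, and the Stfa2l1 window holds none of the marked elements.
Kif2c, chr4:117178723-117179022, minus strand: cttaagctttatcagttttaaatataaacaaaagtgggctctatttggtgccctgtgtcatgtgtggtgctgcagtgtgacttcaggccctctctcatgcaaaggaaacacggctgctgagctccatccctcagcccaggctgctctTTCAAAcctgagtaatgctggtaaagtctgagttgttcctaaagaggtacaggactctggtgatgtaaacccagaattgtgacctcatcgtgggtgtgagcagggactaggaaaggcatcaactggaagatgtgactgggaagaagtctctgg
Clec4e, chr6:123289822-123290121, minus strand: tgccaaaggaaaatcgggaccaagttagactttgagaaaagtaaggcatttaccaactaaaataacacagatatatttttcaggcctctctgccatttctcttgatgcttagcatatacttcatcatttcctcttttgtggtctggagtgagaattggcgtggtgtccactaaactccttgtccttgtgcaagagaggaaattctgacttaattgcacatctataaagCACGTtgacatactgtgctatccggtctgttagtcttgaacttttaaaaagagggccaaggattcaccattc
Stfa2l1, chr16:36156561-36156860, plus strand: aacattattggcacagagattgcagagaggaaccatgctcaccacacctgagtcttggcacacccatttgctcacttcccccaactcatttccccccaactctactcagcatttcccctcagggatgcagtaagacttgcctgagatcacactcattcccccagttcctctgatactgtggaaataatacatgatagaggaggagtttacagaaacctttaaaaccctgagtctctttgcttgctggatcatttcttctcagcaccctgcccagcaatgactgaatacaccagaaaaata

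Neutrophil genes had the highest median of the 30 lists, 5.10, which was 3.25 with normexp background correction. Of 32 measured genes 25 were beyond 4-fold higher (78.1%, beside 7.68% of all measured genes) and none was lower beyond 4-fold. All 32 were above background on the HAK-1B TEC array but 19 on the LSEC array. Among those above background on both arrays the median was 3.91. Their summed signal was 109900 in LSEC and 299700 in HAK-1B TEC. Most of the LSEC sum came from Csf3r, whose probe is described at the end of this paragraph. Granule genes were among them: Ltf, Camp (6.15 and 11.27), Ngp (at least 45.3-fold higher) and Lcn2 (8.10 and 12.01). S100a9 read 9.53 and 16.26 and S100a8 7.91 and 14.73. The stefins Stfa2l1 and Stfa1, cysteine protease inhibitors of neutrophils, were higher by at least 6.17 and 5.91 on the log2 scale, and the stefin-like gene BC100530 at least 101-fold. The chemokine receptor Cxcr2 was at least 22.2-fold higher. Ly6g, the surface marker used to define mouse neutrophils, was dim in LSEC and read 6.15 in HAK-1B TEC, with a bound of 2.88-fold. Mpo (0.20) and Elane (0.10), granule genes of immature neutrophils, did not differ. Csf3r read 16.25 and 15.63 and was as bright on the Hepa1-6 cell array, at 15.22 on the scale over 5 arrays, so its probe does not separate these cells.

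**Figure D3:**
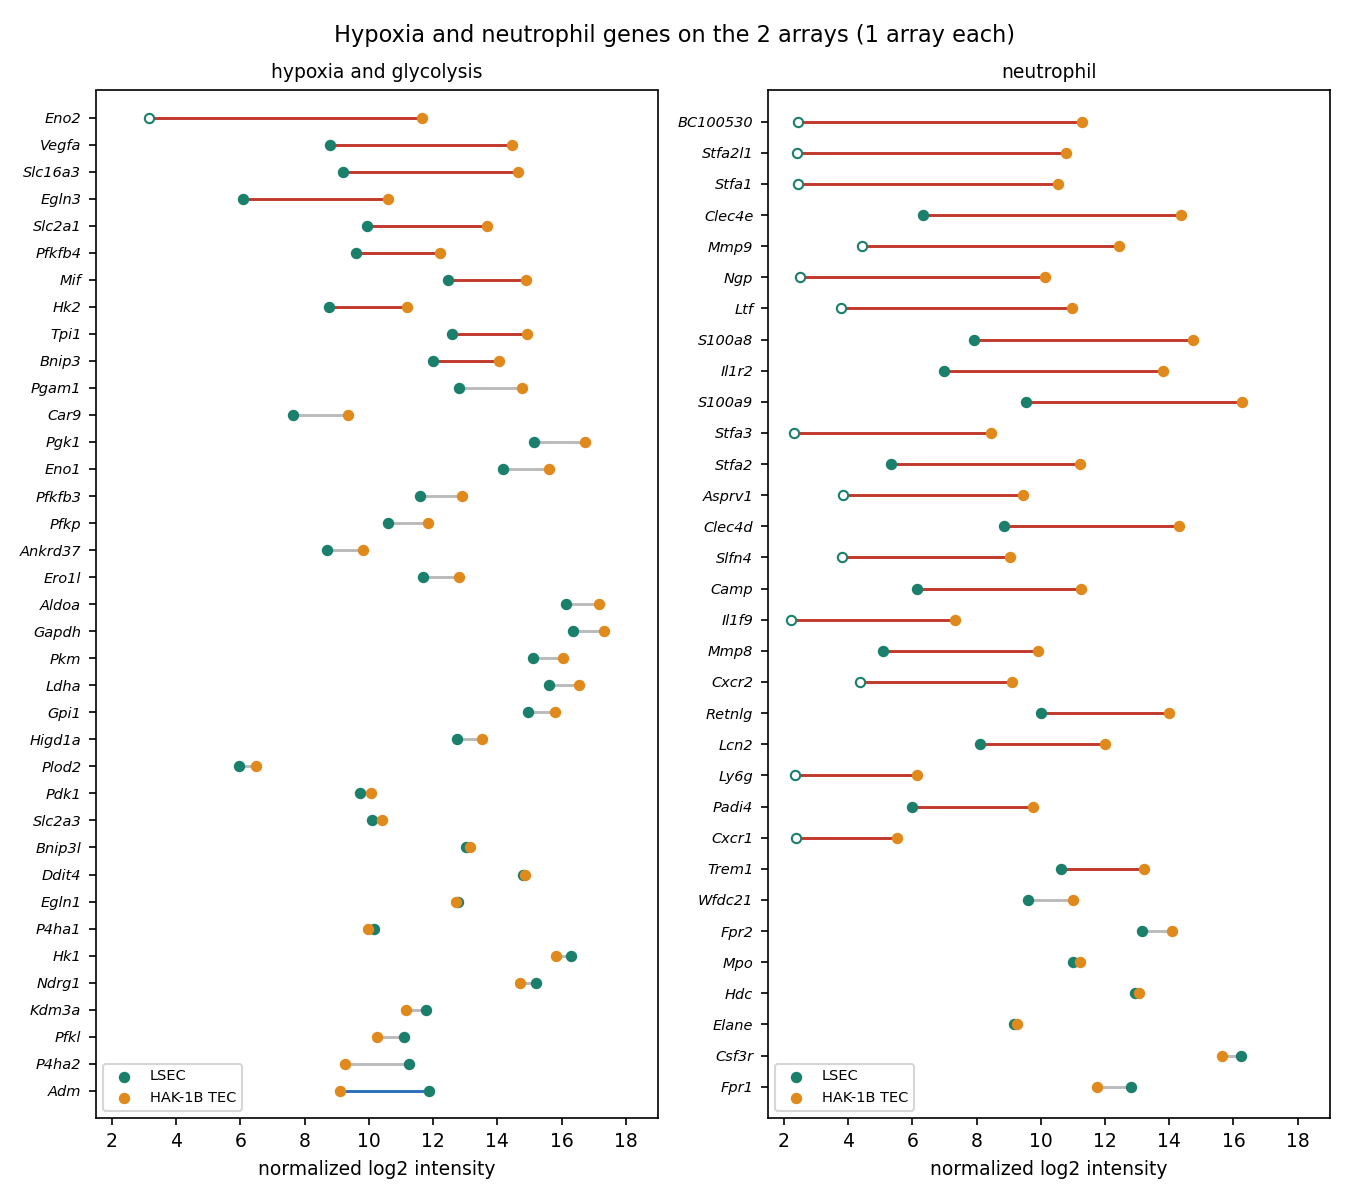
Normalized log2 intensity of 37 hypoxia and glycolysis genes (left) and 32 neutrophil genes (right) on the LSEC array (green) and the HAK-1B TEC array (orange). Open points were not well above background, and red lines join genes beyond 4-fold higher, 10 on the left and 25 on the right.

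Macrophage genes differed by kind. Of 30 tumor macrophage and monocyte genes 11 were beyond 4-fold higher (36.7%) and 1 lower (3.33%), beside 7.68% and 8.33% of all measured genes. The summed signal of the 30 was 992200 in LSEC and 1788000 in HAK-1B TEC. Arg1, Chil3, Fn1 and Spp1 led, followed by Ms4a7 (10.57 in LSEC and 16.06 in HAK-1B TEC), Ccr2, the receptor that brings monocytes to tissue (6.86 and 12.12), Trem2 (11.34 and 15.71) and Gpnmb (at least 28.4-fold). Genes shared by most macrophages were within 4-fold, with Csf1r at 0.25, Adgre1 at 0.04, Cd68 at 0.78 and C1qa at 0.81. Of 20 genes of Kupffer cells, the resident macrophages of the liver, none was beyond 4-fold higher and 14 were lower (70.0%), with a median of -3.29 and a summed signal of 761800 and 136600. Cdh5 and Id3 stand in this list too. Clec4f, their defining lectin, read 16.98 and 11.54, a 43.3-fold difference, Cd5l 17.42 and 12.88, and Timd4 12.46 and 8.30. The iron exporter Slc40a1 was 25.7-fold lower and Kcna2 at least 11.7-fold.

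Dendritic and lymphoid genes differed less. Itgax, an integrin of dendritic cells and macrophages, read 8.61 in LSEC and 14.64 in HAK-1B TEC, 65.4-fold higher. Its 3 probes ran from 3.57 to 6.27 on the log2 scale. Flt3, a receptor of dendritic cell progenitors, was 8.59-fold higher with another probe at -0.90. Zbtb46 and Clec9a, which stand in the list of dendritic cell genes, were 9.26-fold and 7.33-fold lower. Which cells gave these readings was not tested. Among 30 measured T and NK genes 6 were beyond 4-fold higher (20%, beside 7.68% of all measured genes) and none lower. The median was 0.37. The costimulatory receptor Tnfrsf9 was at least 60.7-fold higher, although Cd3e, which marks T cells, had -0.71 and Ifng -0.92. Cd8a had a bound of 1.71-fold and Klrb1c, an NK receptor, of 4.07-fold. Of 17 B and plasma cell genes 1 was beyond 4-fold higher, Sdc1 at 4.50-fold, and 1 lower, Jchain at 7.42-fold. Each is 5.88% of the list, near the 7.68% and 8.33% of all measured genes. The brightest probe of Siglech, a gene of plasmacytoid dendritic cells, read 15.25 on the Hepa1-6 cell array on the scale over 5 arrays, so it does not separate these cells.

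Inflammatory mediators were mixed. Of 38 genes of the IL-1, IL-6 and TNF families 13 were beyond 4-fold higher (34.2%) and 6 lower (15.8%). The shares of all measured genes were 7.68% and 8.33%, also for the chemokines below. Ptgs2, the inducible cyclooxygenase, read 8.73 in LSEC and 14.29 in HAK-1B TEC, 47.0-fold higher, the cytokine Osm was higher by 4.42 and Il1b by 2.41. The receptor subunit genes Osmr and Il6st, through which oncostatin M acts, were lower by 3.10 and 3.82, and Il33, an alarmin of endothelium, by 3.11. Among CXC chemokines and receptors 7 of 20 were beyond 4-fold higher (35%) and 2 lower (10%, near that of all genes). Cxcl3 and Cxcl2 (2.44), which attract neutrophils, were higher, Cxcl14 was 23.5-fold higher, and Cxcl9, an interferon-induced attractant of T cells, was 9.95-fold lower. Cxcl1 read high on both arrays (15.43 and 16.20). Of 27 CC chemokine and receptor genes 10 were beyond 4-fold higher (37%) and 5 lower (18.5%). Ccl12 was 28.8-fold higher, Ccl8 higher by 4.57, Ccr1 at least 6.26-fold higher and the scavenging receptor Ackr4 33.3-fold lower.

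Among 20 leukocyte adhesion genes 3 were beyond 4-fold higher (15%) and 2 lower (10%), beside 7.68% and 8.33% of all measured genes. Ackr1, a chemokine carrier of venules, read 13.70 in LSEC and 10.87 in HAK-1B TEC. Selplg, a ligand of selectins on leukocytes, was 5.93-fold higher and the leukocyte integrin Itgb2 4.64-fold, whereas the endothelial ligands Icam1 and Vcam1 had 0.23 and -1.54. Madcam1 had a bound of 1.15-fold.

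Of 30 interferon genes 28 had a log2 ratio below 0, and the median was -0.93. Beyond 4-fold, 3 were lower (10%, near the 8.33% of all measured genes). Iigp1, a GTPase of the interferon response, read 14.22 and 9.92, 19.8-fold lower, and Oasl1 was lower by 1.88. Oas1a was beyond 4-fold lower as read, with a bound of 1.83-fold. The arginine genes Arg1, Slc7a2 (at least 5.51-fold), Nos2 (11.7-fold) and Arg2 (3.01 on the log2 scale) were higher. Of 22 measured arginine and polyamine genes 6 were beyond 4-fold higher (27.3%, beside 7.68% of all measured genes). Otc of the urea cycle, the 1 lower (4.55%), was at least 4.90-fold lower. Lipid genes were divided, with 4 of 26 beyond 4-fold higher (15.4%) and 5 lower (19.2%). Dgat2 was 11.1-fold higher and Ch25h 10.2-fold higher. The lipase Lpl was 8.17-fold lower by its brightest of 6 probes, which ran from -4.0 to -0.31. Immediate early and stress genes had a median of 0.20. Of 41, 3 were higher (7.32%, near that of all genes), namely Nr4a2 at 14.1-fold, Fosl2 at 8.80-fold and Fosl1 with a bound of 3.76-fold. Another probe of Fosl2 had a log2 ratio of 1.86. The 5 lower (12.2%) included the chaperones Hspb1 (6.94-fold) and Hspa1b (-2.45).

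Parenchymal, stromal and blood cell genes followed their own directions. Of 35 hepatocyte genes 24 were beyond 4-fold lower (68.6%) and 4 higher (11.4%), beside 8.33% and 7.68% of all measured genes. The hepatocyte median was -3.83, which was -1.67 among those above background on both arrays and -2.24 with normexp. Their summed signal was 144000 in LSEC and 162300 in HAK-1B TEC. The higher ones were Hp (3.03) and C3 (2.56), both acute phase genes, Ass1 (2.01), and F9, which was dim in LSEC with a bound of 5.18-fold. Of 21 erythroid and platelet genes 14 were beyond 4-fold lower (66.7%), with a summed signal of 391100 in LSEC and 47480 in HAK-1B TEC. Hba-a1 was 40.6-fold, Hbb-b1 47.5-fold and Alas2, the enzyme of heme synthesis in red cells, 29-fold lower, while Pf4 of platelets had -0.10. Of 28 fibroblast and stellate cell genes 5 were beyond 4-fold higher (17.9%) and 2 lower (7.14%, near that of all genes). Col1a1 read 5.75 and 9.01 and Fap 6.29 and 9.32, and the contractile gene Myl9 read 14.46 and 11.03. Of 13 cholangiocyte and oncofetal genes 4 were beyond 4-fold higher (30.8%), among them H19 at 9.46-fold, Cd24a at 6.89-fold and Spp1. Epcam was not above background on either array.

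**Figure D4:**
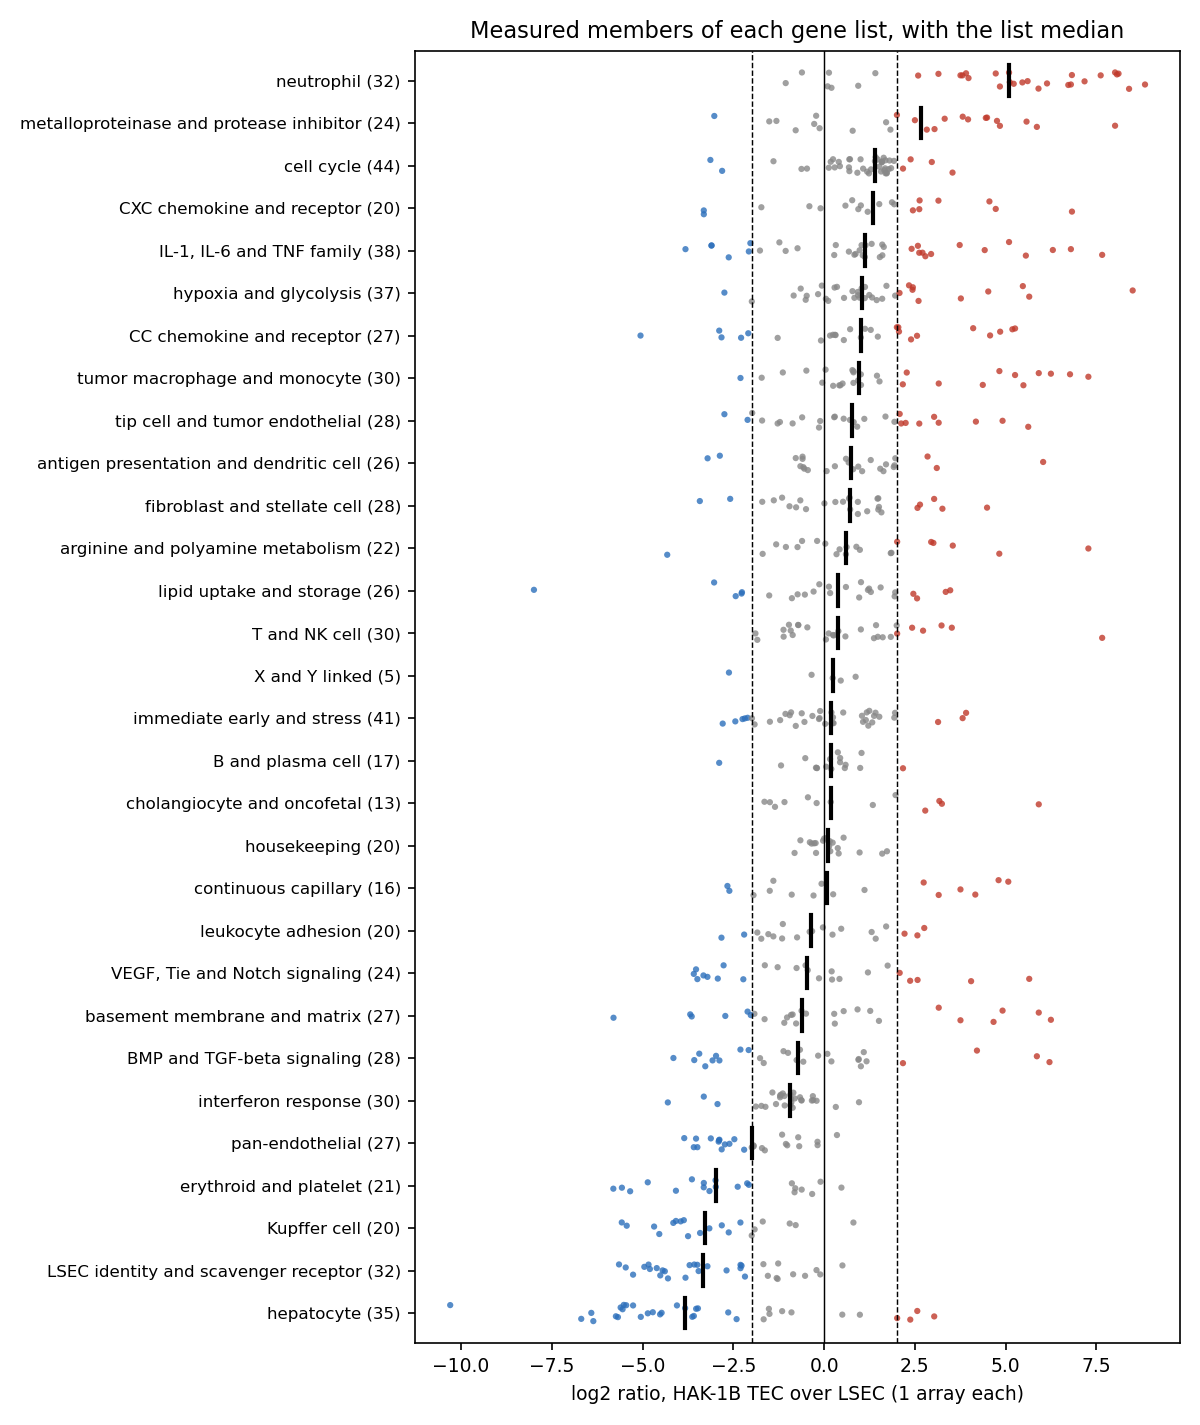
Log2 ratio of HAK-1B TEC over LSEC for each measured member of the 30 gene lists, with the number measured in parentheses, the median as a black bar and dashed lines at 4-fold. Medians ran from -3.83 for hepatocyte genes (-1.67 among those above background on both arrays) to 5.10 for neutrophil genes (3.25 with normexp).

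The other arrays place these values. On the scale over 5 arrays, and each set against the same LSEC array, the list median of the pan-endothelial genes was -2.10 for HAK-1B tumors, -1.515 for KYN-2 tumors and -2.45 for Hepa1-6 tumors, and that of sinusoidal identity was -3.36, -2.36 and -2.77. The neutrophil median was 4.89, 1.05 and 3.30. S100a8 read 7.82 on the LSEC array and 14.86, 9.44 and 12.19 on the TEC arrays in that order. In the same order Arg1 read 7.29, 14.74, 15.03 and 13.76, so it was high in all 3 TEC arrays. Alb read 12.97, 6.51, 8.85 and 15.54, and Hbb-bt 15.93, 9.89, 14.29 and 12.78, so both were lowest in HAK-1B TEC among these 4 arrays. No difference between the TEC arrays was tested.

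**Figure D5:**
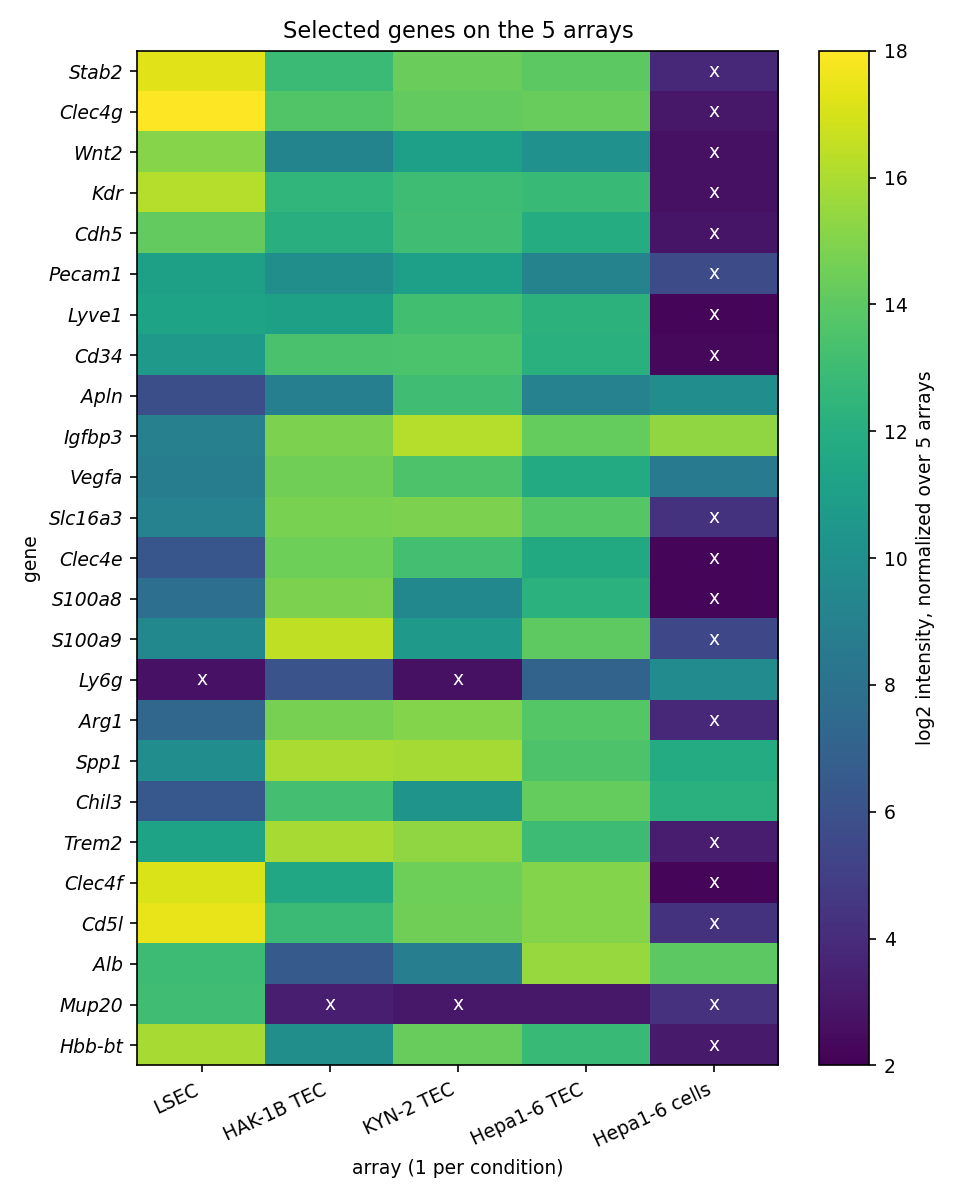
Log2 intensity of 25 genes on the 5 arrays after normalization over all of them, as colour from 2 (dark) to 18 (bright), with x where the gene was not well above background. Stab2, Clec4g and Wnt2 are brightest on the LSEC array, and Clec4e, S100a8 and S100a9 on the HAK-1B TEC array.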

How the data were processed

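RNA was labelled with Cy3 and hybridized to 60-mer mouse microarrays, 1 array a sample. The deposited scanner files hold the processed signal, a linear intensity that the authors' Feature Extraction software had background-corrected. The labels give version 9.5.1.1 of that software and the file headers 10.7.1.1. The labels and methods also name different RNA kits. Control spots were left out, intensities averaged per probe (56605 probes), taken as log2 and quantile normalized over the 2 arrays, in Python 3.11.15 with numpy 2.4.6 and pandas 2.3.3. Probes were kept where the software called them well above background on either array. A gene was read by its brightest probe. No spot was saturated. The authors' value table, also a deposited intensity, was an alternative only, as was normexp correction in limma 3.58.1. The normalization and the 4-fold call were tested on simulated data with known changes. Those changes were beyond 4-fold and in bright probes only, so the simulation did not cover genes dim on 1 array. With 1 array a side no test was run.

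Named genes were the 12 with the largest ratios each way among those above background on both arrays, the 6 with the largest bounds each way, and members of 30 gene lists. Members and lists were chosen with earlier results of these data known. Promoters came from RefSeq (GRCm38.p6), where 946 of the 1725 higher and 1082 of the 1872 lower genes had a match. Some members of the lists are counted but not reported here by name.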

Additional observations from a re-analysis of the deposited data

How the results depend on the processing

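No paired analysis was possible because LSEC and HAK-1B TEC were each hybridized once, and for the same reason no array could be left out. The sign of 1 list median turned, that of continuous capillary genes, from 0.09 to -0.29 with genes above background on both arrays, a shift within the SD between probes of a gene. The count of genes beyond 4-fold higher moved from 1725 to 665 with normexp background correction. It was 755 with genes above background on both arrays and 1016 with the bound. The count lower moved from 1872 to 837 with normexp and 1092 with genes above background on both arrays. The thresholds of the methods use a ratio and a Z-score in place of 4-fold and leave out lincRNAs. They gave 661 genes higher (ratio at least 1.5, Z-score at least 2). In the lower direction they gave 810 (ratio at most 0.66, Z-score at most -2). With normexp the list medians were 1.86 for proteases, 3.25 for neutrophils, -2.90 for Kupffer cells, 0.31 for fibroblasts, -2.24 for hepatocytes, -2.06 for erythroid genes and 0.92 for CXC chemokines. With genes above background on both arrays they were -0.11 for matrix, 1.91 for proteases, 3.91 for neutrophils, -1.67 for hepatocytes, 0.76 for cholangiocyte genes and -2.38 for erythroid genes. With the authors' table they were 4.70 for neutrophils and -2.57 for erythroid genes, and with the mean over probes 2.21 for proteases. Among 380 higher genes with several measured probes, 245 had all of them beyond 4-fold and 40 had at least 1 probe in the other direction. Among 447 such lower genes these counts were 252 and 36. Of 136 genes checked singly 86 moved by more than the SD between probes of a gene (0.38) under at least 1 alternative, and none reversed. They were the genes with the largest ratios or bounds, up to 4 members a list with the largest ratios, and markers such as Pecam1. Genes with large ratios can hardly change sign, and a ratio smaller than 0.38 in size could not be called reversed. The other genes named above were not checked in this way. Genes dim on 1 array have only a bound, and with normexp some fell below it.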

Other observations

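Gene families chosen by symbol after their values were seen add to the lists. All 10 measured Ces genes, the carboxylesterases of liver, were beyond 4-fold lower in HAK-1B TEC, as were 15 of 18 Serpina genes and 39 of 66 Cyp genes, of which 3 were higher. Of 64 interleukin and interleukin receptor genes 21 were beyond 4-fold higher and 9 lower. Of 32 genes with the prefix H2-, 2 were higher and 2 lower. The shares of all measured genes were 7.68% higher and 8.33% lower. These counts are descriptions of 2 arrays. Of 2089 measured lincRNAs 145 were beyond 4-fold higher (6.94%) and 160 lower (7.66%), near the shares of all measured genes.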
